A study of Mus musculus with 8 samples.

Results

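Mouse cardiac fibroblasts that overexpress EphrinB2 (4 libraries) were compared with cells that carry a control vector (4 libraries) over both culture media. Libraries were chosen by their labels, and the comparison used 8 of the 8 in the series. Cardiac fibroblasts are the matrix-producing cells of the heart. The labels give 4 groups of 2 libraries, all at day 7: vector cells in complete medium, vector cells in osteogenic differentiation medium, EphrinB2-overexpression cells in complete medium, and EphrinB2-overexpression cells in osteogenic differentiation medium. All groups are of the same cell type, and the labels name neither the strain, age or number of animals nor the construct or promoter that carried Efnb2. They do not say whether libraries sharing a group were grown as separate cultures. The p-values below therefore describe how these libraries scatter, and that scatter may be technical. The question was which genes differed with EphrinB2 in the same direction whether or not the cells were in osteogenic medium.

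Ephrin-B2 is a transmembrane ligand. It binds Eph receptor tyrosine kinases, mainly of the B class, on neighbouring cells. The receptor-bearing cell receives a forward signal, and the cell that carries the ligand receives a reverse signal through the ligand's cytoplasmic tail, its SH2-domain adaptors and its PDZ-binding end. The pair is best known for sorting arteries from veins, and in bone for contact between osteoclasts and osteoblasts.

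The values were FPKM, fragments per length of exon and per counted read of the library, which correct for gene length and depth. Libraries held 16493963 to 20550770 counted reads, as estimated from the steps between low FPKM values, and 11717 to 12125 genes reached 1 FPKM in a library. Both EphrinB2 groups had a library that stood apart, EphrinB2 complete replicate 2 and EphrinB2 osteogenic replicate 1. The SD of the log2 difference between partners was 0.517 and 0.657 in the EphrinB2 groups against 0.261 and 0.234 in the vector groups. In the EphrinB2 groups that difference also tracked exon length, with a Spearman's rho across genes of 0.44 and 0.508. Genes are not independent replicates. The FPKM of EphrinB2 osteogenic replicate 1 summed to 360626, against 253613 to 269809 in the other libraries. Fibroblast markers were present in every library, with a summed level of 6729 to 9744 FPKM over 24 genes. Of 15 cardiomyocyte markers, 11 stayed under 0.1 FPKM in every library, including Myh6 and Actc1. Macrophage markers were present in all of them, with a sum of 1018 to 9083 FPKM over 25 genes. The RNA is that of whole cultures, in which fewer cells of a type and less RNA per cell cannot be told apart.

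Efnb2 had the smallest p of all 12994 genes tested, and it was the only gene with a mean of at least 2 FPKM that was at least 2-fold higher and separated from vector in both media. Efnb2 (ENSMUSG00000001300, GRCm38 chromosome 8, 8617434 to 8661242, minus strand) stood at 6.30 and 5.56 FPKM in vector and 31.3 and 32.8 in EphrinB2 libraries in complete medium, and at 1.39 and 1.27 against 5.02 and 18.3 in osteogenic medium. In each medium both EphrinB2 values were the higher ones, and the osteogenic EphrinB2 libraries differed widely from each other. The smallest of these values, 1.27 FPKM, rested on an estimated 168 reads, and the largest on 3714. The log2 difference over both media was 2.23 (SE 0.32, 95% interval 1.495 to 2.97), with 2.26 in complete and 2.21 in osteogenic medium. The difference between those 2 values was -0.05 (SE 0.67, unadjusted p = 0.946 for the interaction in limma). In limma the unadjusted p of the main effect was 0.000141 and the adjusted p over all genes 0.887, which did not pass the threshold of 0.05. An exact permutation test of Efnb2 alone, which moved labels within each medium over 36 arrangements, gave a two-sided p of 0.0556, the smallest this design allows. Without EphrinB2 osteogenic replicate 1 the log2 difference was 2.57 and passed (adjusted p = 0.032), and it also passed when limma weighted the libraries by their estimated reliability (2.57, adjusted p = 0.00294). Without both libraries that stood apart it was 2.63 (adjusted p = 0.0749). A gene-level value does not separate reads of the construct from those of the cells' own gene.

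**Figure D1:**
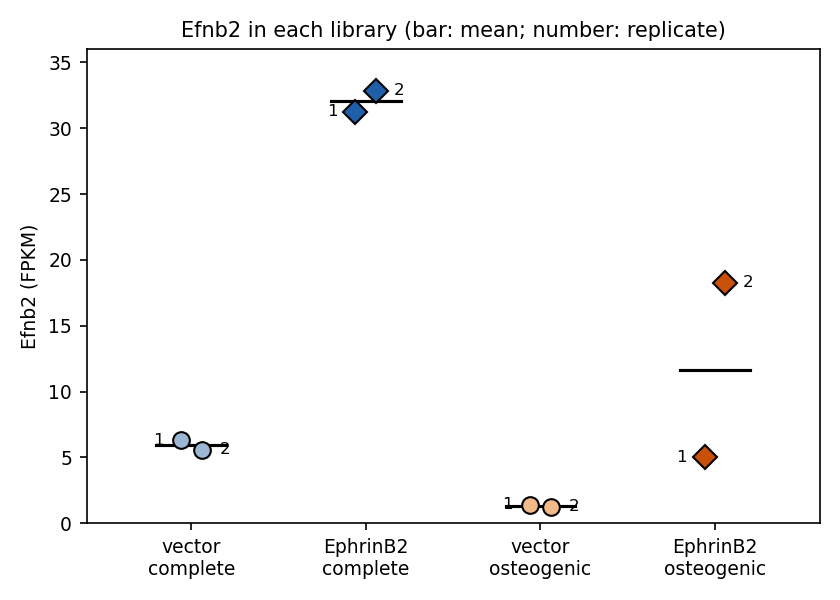
Efnb2 in FPKM (vertical axis) in each of the 8 libraries, by group (horizontal axis); points are libraries labelled with their replicate number and bars are group means. Both EphrinB2 libraries lie above both vector libraries in each medium, at 31.3 and 32.8 FPKM in complete and at 5.02 and 18.3 FPKM in osteogenic medium.

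No gene, Efnb2 included, passed the threshold over both media, and few of the differences that repeated in both media reached 2-fold. Over both media 0 of 12994 genes passed the adjusted threshold (limma, 0% called), and 378 genes, 2.91% of those tested, had an unadjusted p under 0.05, 201 of them higher (1.55%) and 177 lower (1.36%). The median absolute log2 difference was 0.128, and the 95% interval reached a median of 0.356 to either side, so that for a typical gene these libraries leave room for a difference of that size in either direction. The test of whether the EphrinB2 difference itself differed between media called 0 genes (0%; 214 genes, 1.65%, at an unadjusted p under 0.05). Within complete medium 1 gene passed (0.0077% called), the miRNA gene Mir3569, which was named after its values were seen and rested on 5 and 4 reads in the vector libraries and 0 in the other 6. With a pseudocount of 0.1 it did not pass. In that medium 167 genes (1.29%) had an unadjusted p under 0.05. Within osteogenic medium 0 genes passed (0%; 441 genes, 3.39%, at an unadjusted p under 0.05). Without EphrinB2 osteogenic replicate 2, which leaves only the library that stood apart in that group, 2742 did, and without replicate 1 it was 1.

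A gene is called here separated the same way where both EphrinB2 libraries lay above, or both below, both vector libraries in complete and again in osteogenic medium. This held for 676 genes on the higher side (5.2% of those tested) and 421 on the lower side (3.24%), 8.44% in either direction. A further 419 genes (3.22%) were separated in opposite ways in the media. The groups separated more often in osteogenic medium (25.6% of genes higher and 22.3% lower) than in complete medium (14.3% and 11.5%). Across genes the EphrinB2 differences in the media had a Spearman's rho of -0.139, which was -0.0432 after a correction for exon length and 0.337 without both libraries that stood apart. The genes separated to the higher side had a median exon length of 3255 bases and those to the lower side 5268, against 3957.5 over all genes tested. The log2 difference over both media had a rho of -0.381 with exon length. After the length correction 366 of the 676 and 268 of the 421 were still separated the same way. Of the genes separated the same way, 61.6% were higher, but only 19.5% after each library was rescaled to the same total. That rescaling moved the median log2 difference of all genes from 0.00254 to -0.15. Under it 1.71% of the genes tested were separated to the higher and 7.04% to the lower side. Directions of small differences therefore depend on the scale.

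**Figure D2:**
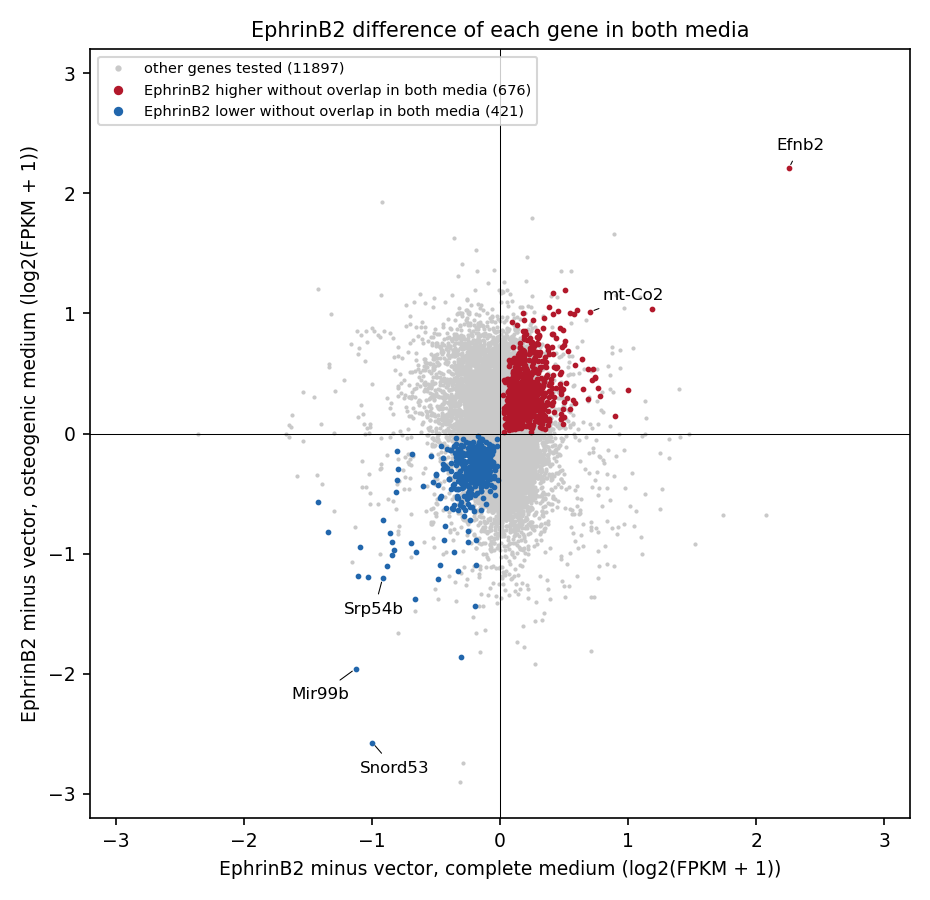
Log2 difference between EphrinB2 and vector cells in complete (horizontal axis) and osteogenic medium (vertical axis), on log2(FPKM + 1), for the 12994 genes tested; each point is a gene, red or blue where the groups did not overlap and went the same way in both media. Efnb2 stands alone at 2.26 and 2.21, while the coloured points have a median log2 difference over both media of 0.257 on the higher and -0.239 on the lower side.

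With a mean of at least 2 FPKM, 603 genes were separated to the higher and 293 to the lower side, and 1 and 5 of these differed by at least 2-fold. The 1 on the higher side was Efnb2. Srp54b, which encodes a copy of the GTPase subunit of the signal recognition particle and has near-identical paralogs that may share its reads, was the only named protein-coding gene among the 5 lower ones. It stood at 1.08 and 3.05 FPKM in vector and 0.574 and 0.497 in EphrinB2 libraries in complete medium, and at 7.74 and 2.76 against 0.766 and 2.51 in osteogenic medium. Its vector libraries differed by more than 2-fold within each medium (log2 difference -1.06, SE 0.35; named after its values were seen). Named protein-coding genes that differed by at least 0.5 on the log2 scale numbered 18 on the higher and 4 on the lower side.

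The genes described next come first by unadjusted p among those separated the same way with at least 2 FPKM on average, 10 in each direction. Their separation is part of how they were chosen and is no finding in itself, and none of them passed the adjusted threshold (limma, adjusted p = 0.887 for all 20). On the higher side, after Efnb2, stood genes of the cell surface and of lipid handling. Gpc3, a glypican that carries heparan sulfate at the cell surface, stood at 19.5 and 22.2 FPKM in vector and 24.7 and 30.97 in EphrinB2 libraries in complete medium, and at 16.8 and 16.1 against 22.9 and 21.7 in osteogenic medium (log2 0.40, SE 0.11). Its smallest EphrinB2 value exceeded its largest vector value by a small margin in complete medium and by a wider one in osteogenic medium.

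Both genes of epoxide lipid metabolism in this group were higher by similar amounts in each medium. Cyp2j6, a cytochrome P450 of the family that forms epoxides from arachidonic acid, stood at 5.76 and 5.98 FPKM in vector and 7.53 and 8.04 in EphrinB2 libraries in complete medium, and at 7.78 and 7.49 against 10.2 and 9.65 in osteogenic medium (log2 0.35, SE 0.08). Ephx2, the soluble epoxide hydrolase that opens such epoxides, stood at 6.79 and 7.29 FPKM in vector and 9.03 and 11.5 in EphrinB2 libraries in complete medium, and at 30.2 and 30.7 against 43.6 and 35.4 in osteogenic medium (log2 0.42, SE 0.12). Stard10, a lipid transfer protein, stood at 2.60 and 2.999 FPKM in vector and 3.98 and 4.84 in EphrinB2 libraries in complete medium, and at 2.65 and 2.78 against 6.94 and 4.03 in osteogenic medium. Its log2 difference was 0.64 (SE 0.16), and 0.42 without both libraries that stood apart. Others on the higher side were Csdc2, an RNA-binding cold shock domain protein (log2 0.31), Fam180a (0.37), Rapsn, which clusters acetylcholine receptors (0.49), and the imprinted transporter gene Slc22a18 (0.49). Slc22a18 had its largest values in the libraries that stood apart, 11.7 and 11.2 FPKM, and its log2 difference without them was 0.26.

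On the lower side, Itgb2, the beta chain of the leukocyte integrins, was the most abundant of the 10 genes. It stood at 26.3 and 24.6 FPKM in vector and 18.99 and 20.6 in EphrinB2 libraries in complete medium, and at 49.2 and 48.5 against 34.3 and 36.1 in osteogenic medium (log2 -0.40, SE 0.09, 95% interval -0.62 to -0.18). Both EphrinB2 pairs lay below their vector pairs, and the pairs themselves were tight. Adam8, a membrane metalloproteinase-disintegrin, stood at 15.98 and 15.4 FPKM in vector and 10.9 and 11.96 in EphrinB2 libraries in complete medium, and at 48.6 and 50.6 against 41.7 and 40.4 in osteogenic medium (log2 -0.35, SE 0.09). Nlrp3, the sensor of the inflammasome, stood at 1.93 and 2.07 FPKM in vector and 1.12 and 1.51 in EphrinB2 libraries in complete medium, and at 4.27 and 4.14 against 2.04 and 2.77 in osteogenic medium (log2 -0.50, SE 0.12). Its EphrinB2 libraries again lay below the vector libraries in each medium. Also on this side were the cytokine receptor Il21r (log2 -0.35), Ptafr, the receptor of platelet-activating factor (-0.34), the formin Fmnl1 (-0.34) and the immunoglobulin superfamily receptor Igsf6 (-0.33). With both libraries that stood apart left out these 7 differences ran from -0.48 to -0.36, against -0.50 to -0.33 with all libraries, so each is about as large without them.

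The lower side also held 2 short non-coding genes with few reads. Mir99b (70 bases of exon) held an estimated 4, 6, 6 and 8 reads in the vector libraries and 1, 2, 0 and 2 in the EphrinB2 libraries. A library of this kind counts the precursor or host transcript rather than the mature miRNA. The small nucleolar RNA gene Snord53 held 13, 6, 13 and 11 against 6, 2, 2 and 0 reads. At these depths the log2 differences of -1.54 and -1.79 rest on a handful of reads each.

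**Figure D3:**
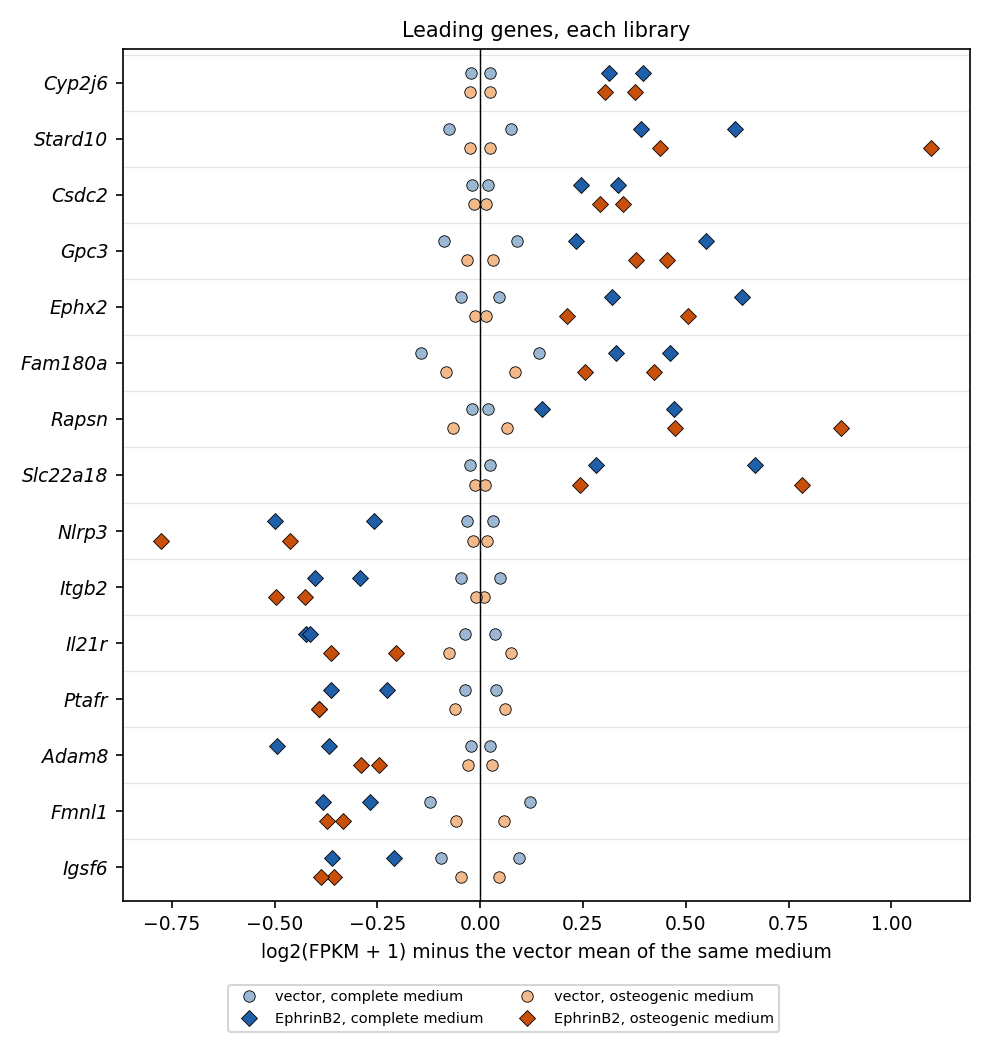
The 15 protein-coding genes other than Efnb2 described among those that come first by unadjusted p among genes separated the same way in both media; the horizontal axis is log2(FPKM + 1) minus the vector mean of the same medium, circles are vector and diamonds EphrinB2 libraries. Diamonds lie on 1 side of the circles in each medium, by construction, and the largest log2 differences over both media are 0.64 for Stard10 and -0.50 for Nlrp3.

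The promoters of the leading genes were searched for a motif chosen after the genes were seen. RefSeq's promoter table (GRCm38.p6) held 6 of the 10 genes of each direction. The core GAGGAA of the sites bound by the myeloid factor PU.1, an ETS factor, was searched on both strands in the 250 bases before the start, where it reads TTCCTC on the opposite strand. It was found in 4 of 6 lower genes (Nlrp3, Ptafr, Fmnl1 and Igsf6) and in 2 of 6 higher genes, against 26% of the tested genes with a promoter, where a gene counts if any of its listed starts has a match, and 23.3% of all 32851 promoters in the table. Nlrp3 has 2 listed starts, and only one of them has a match. The longer GAGGAAGT, which contains it, was in 1 gene of each group, Fmnl1 and Slc22a18, and in 2.44% of all promoters. A match is a description of the letters and not of a bound site. Fmnl1 and Igsf6 are shown, with matches that begin 50 and 39 bases before the start. The letters run 5′ to 3′ on the gene's strand and end at the base before the start, with the match in capitals.
Fmnl1, GRCm38.p6 chr11:103170888-103171137, plus strand: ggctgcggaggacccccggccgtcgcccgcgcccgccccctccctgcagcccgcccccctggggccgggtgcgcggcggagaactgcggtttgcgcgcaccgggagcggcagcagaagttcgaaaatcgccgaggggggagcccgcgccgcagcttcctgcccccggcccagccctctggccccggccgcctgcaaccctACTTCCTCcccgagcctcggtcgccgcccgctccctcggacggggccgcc
Igsf6, GRCm38.p6 chr7:121074531-121074780, minus strand: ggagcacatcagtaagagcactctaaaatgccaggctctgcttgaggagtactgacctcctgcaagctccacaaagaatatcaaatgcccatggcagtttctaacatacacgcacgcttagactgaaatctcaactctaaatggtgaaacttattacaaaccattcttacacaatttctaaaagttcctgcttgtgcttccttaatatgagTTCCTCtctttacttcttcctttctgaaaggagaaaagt

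The macrophage markers lay mostly below 0. Of 24 macrophage markers tested 0 passed the threshold, and 21 had a difference below 0, against 49.5% of all genes. Their median was -0.19, against 0.00 for all genes. Only 1, Ptprc, which encodes the pan-leukocyte antigen CD45, was separated to the lower side in both media (4.17%, against 3.24% of all genes), and 0 to the higher side. Ptprc stood at 2.07 and 1.90 FPKM in vector and 1.65 and 1.77 in EphrinB2 libraries in complete medium, and at 3.05 and 3.29 against 1.92 and 2.29 in osteogenic medium (log2 -0.28, SE 0.10). It has 18313 bases of exon. With the length correction its log2 difference was -0.09, and it was not separated the same way. The macrophage receptor Adgre1 stood at 21.98 and 23.1 FPKM in vector and 19.2 and 22.7 in EphrinB2 libraries in complete medium, and at 47.2 and 50.6 against 34.1 and 39.5 in osteogenic medium (log2 -0.25, SE 0.12). EphrinB2 complete replicate 2 lay between the vector libraries, so the groups overlapped in complete medium. The mannose receptor Mrc1 had a log2 difference of -0.36 (SE 0.18) and the scavenger receptor Cd163 one of -0.26 (SE 0.17). Without both libraries that stood apart 16 of the 24 were separated to the lower side and 0 to the higher side, against 19% and 21.7% of all genes, with a median of -0.19 against 0.01. After rescaling to the same total 5 were separated to the lower side (against 7.04% of all genes), and after quantile normalization 4 (against 412 of all 12994 genes). The summed FPKM of the macrophage list was 2322 and 2050 in vector and 1959 and 1018 in EphrinB2 libraries in complete medium, and 5226 and 5494 against 9083 and 4635 in osteogenic medium. It therefore did not move 1 way in both media, and the part of macrophage content in the lower genes was not tested.

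Complement genes were separated to the lower side where they were separated at all. Of 18 tested 0 passed the threshold, 5 were separated to the lower side in both media (27.8%, against 3.24% of all genes) and 0 to the higher side, and the median was -0.08. The 5 were the receptors of the anaphylatoxins, C3ar1 and C5ar1, and the components C3, C4b and C7, of which C7, C5ar1 and C3 were named after their values were seen. C4b, a classical pathway component, stood at 24.9 and 26.3 FPKM in vector and 18.5 and 21.4 in EphrinB2 libraries in complete medium, and at 152 and 179 against 121 and 141 in osteogenic medium (log2 -0.34, SE 0.12). C3, the central component, stood at 412 and 385 FPKM in vector and 247 and 382 in EphrinB2 libraries in complete medium, and at 1587 and 1648 against 994 and 1461 in osteogenic medium (log2 -0.40, SE 0.19). In both media 1 EphrinB2 library of C3 lay close below the vector pair and the other well below it. C7, a part of the membrane attack complex, stood at 2.39 and 2.13 FPKM in vector and 1.78 and 1.70 in EphrinB2 libraries in complete medium, and at 26.99 and 27.8 against 11.7 and 19.6 in osteogenic medium (log2 -0.53, SE 0.18). The receptors C3ar1 and C5ar1, which myeloid cells carry, had log2 differences of -0.29 (SE 0.09) and -0.43 (SE 0.17). With both libraries that stood apart left out 7 of 18 were separated to the lower side (against 19% of all genes), and with the length correction 6 (against 4.02%).

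Contractile genes were separated to the higher side where they were separated at all. Of 25 myofibroblast and contractile genes tested 0 passed the threshold, 6 were separated to the higher side in both media (24%, against 5.2% of all genes) and 0 to the lower side, 7 were below 0, and the median was 0.17. Acta2, the smooth muscle actin that marks myofibroblasts, stood at 890.2 and 760.4 FPKM in vector and 1025 and 939 in EphrinB2 libraries in complete medium, and at 516 and 413 against 909 and 619 in osteogenic medium (log2 0.48, SE 0.18). The lower osteogenic EphrinB2 library was 619 FPKM, still above both vector libraries of its medium but below both vector libraries in complete medium. Cnn2, a calponin, stood at 198 and 169 FPKM in vector and 211 and 246 in EphrinB2 libraries in complete medium, and at 161 and 142 against 253 and 172 in osteogenic medium (log2 0.39, SE 0.16). Tpm2, a tropomyosin, stood at 68.2 and 56.8 FPKM in vector and 79.4 and 78.8 in EphrinB2 libraries in complete medium, and at 45.4 and 39.4 against 125 and 55.3 in osteogenic medium. Its log2 difference of 0.65 (SE 0.26) was 0.36 without both libraries that stood apart. The other 3 were the calponin Cnn1 (0.43), the tropomyosin Tpm4 (0.22) and the focal adhesion protein Zyx (0.14), which with Tpm2 were named after their values were seen. The sign of Zyx turned after rescaling to the same total and after quantile normalization. Under these settings 3 and 2 of the 25 were separated to the higher side and 0 to the lower side. Over all genes 1.71% were separated to the higher side after rescaling and 595 of 12994 after quantile normalization. Under either setting 11 of the 25 were below 0. The list's median was 0.02 and 0.06, against -0.15 and 0.0021 for all genes. With the length correction 6 were separated to the higher side (against 4.75% of all genes). Without both libraries that stood apart 15 were, and 2 to the lower side, against 21.7% and 19% of all genes.

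**Figure D4:**
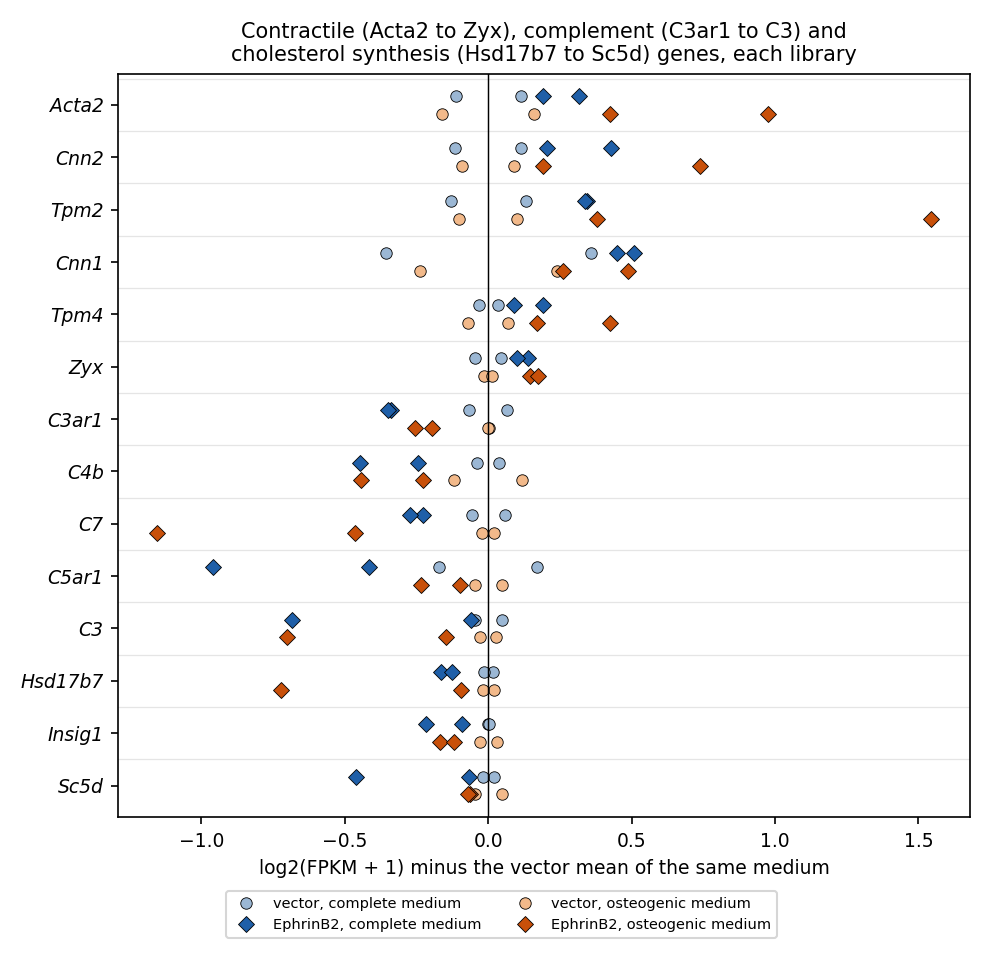
Genes of the contractile, complement and cholesterol synthesis lists described here that were separated the same way in both media; the horizontal axis is log2(FPKM + 1) minus the vector mean of the same medium, circles are vector and diamonds EphrinB2 libraries. Contractile diamonds lie to the right of the circles and the others to the left, and for Tpm2 and C7 a single osteogenic library lies far out.

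Matrix genes were seldom separated the same way. Of 53 collagen and matrix genes tested 0 passed, 2 were separated to the higher side (3.77%, against 5.2%) and 1 to the lower side (1.89%, against 3.24%), 36 were below 0 (against 49.5% of all genes), and the median was -0.09. After rescaling to the same total and after quantile normalization 48 were below 0, with medians of -0.26 and -0.22, against -0.15 and 0.0021 for all genes. Without both libraries that stood apart 27 were, with a median of -0.0021. Elastin, Eln, stood at 115 and 127 FPKM in vector and 195 and 149 in EphrinB2 libraries in complete medium, and at 10.98 and 11.3 against 11.9 and 14.2 in osteogenic medium (log2 0.35, SE 0.13). The matricellular gene Postn, named after its values were seen, was the other (log2 0.23, SE 0.12). P4ha3, a prolyl hydroxylase of collagen, was separated to the lower side (-0.24, SE 0.10). Among 26 proteases and inhibitors 0 were separated to the higher and 1 to the lower side (3.85%, against 3.24%), the gelatinase Mmp9 (log2 -0.82, SE 0.29). Mmp9 stood at 0.452 and 0.440 FPKM in vector and 0.132 and 0.411 in EphrinB2 libraries in complete medium, and at 4.15 and 3.88 against 1.46 and 0.396 in osteogenic medium, so it stayed under 0.5 FPKM in complete medium. The membrane protease Mmp14 had a log2 difference of 0.24 (SE 0.12). Of 27 genes of the TGF-beta pathway 1 was separated to each side (3.7%, against 5.2% and 3.24%), with a median of -0.03. They were the ligand Tgfb1 (0.20, SE 0.11), higher, and the co-receptor Tgfbr3 (-0.36, SE 0.15), lower. Integrins and adhesion genes (21 tested) were separated to the lower side more often, with 3 (14.3%, against 3.24% of all genes). On the higher side was 1, Itgb5 (0.29, SE 0.12; 4.76%, against 5.2%). Among the 3 was the partner chain of Itgb5, Itgav (-0.34, SE 0.15).

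Apart from Efnb2, the Eph and ephrin system differed little with EphrinB2. Of 22 Eph receptors and ephrins 14 were expressed enough to be tested, 0 passed the threshold, and their median log2 difference was 0.00. Efnb2 and Efna2 were separated to the higher side in both media (14.3%, against 5.2% of all genes) and Epha2 to the lower side (7.14%, against 3.24%). The share on the higher side counts Efnb2, the overexpressed gene itself, so it does not describe the other members, of which only Efna2 was higher. Among the ligands, Efnb1, the closest relative of Efnb2 in this list, stood at 11.9 and 11.6 FPKM in vector and 11.2 and 9.91 in EphrinB2 libraries in complete medium, and at 10.9 and 9.40 against 7.74 and 10.9 in osteogenic medium (log2 -0.13, 95% interval -0.42 to 0.15), and the groups overlapped in osteogenic but not in complete medium. The log2 differences of the A-class ligands were 0.23 (Efna1), 0.10 (Efna2), -0.16 (Efna4) and -0.0031 (Efna5). Efna2, near 1 FPKM in every library, was not separated the same way with the length correction, where its log2 difference was -0.014. Efna5 had opposite differences in the media, 0.32 in complete and -0.32 in osteogenic medium. Among the receptors that bind ephrin-B2, Ephb4, the receptor best known as its partner, stood at 13.3 and 12.9 FPKM in vector and 11.7 and 17.4 in EphrinB2 libraries in complete medium, and at 11.96 and 11.5 against 9.60 and 12.3 in osteogenic medium (log2 0.01, 95% interval -0.33 to 0.34). Ephb2 had a log2 difference of -0.01 (95% interval -0.44 to 0.41), Ephb3 at 0.07 (-0.12 to 0.26), Epha4 at -0.02 (-0.38 to 0.34), and the kinase-dead Ephb6 at 0.12 (-0.09 to 0.33). The intervals of Ephb2, Ephb4 and Epha4 leave room for about 0.4 in either direction. Epha3 and Epha7, receptors of A-class ligands, had log2 differences of 0.08 and -0.06. Epha2 was the 1 receptor separated the same way, to the lower side. It stood at 8.01 and 8.002 FPKM in vector and 6.83 and 5.79 in EphrinB2 libraries in complete medium, and at 6.78 and 5.55 against 3.27 and 4.38 in osteogenic medium (log2 -0.44, SE 0.12, unadjusted p = 0.00793, limma adjusted p = 0.887).

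Of the genes that relay ephrin signals few were separated the same way. Of 19 reverse signalling partners of B-class ephrins 0 were separated to the higher and 1 to the lower side (5.26%, against 3.24% of all genes). Below 0 were 8, to be read here and in the lists that follow against 49.5% of all genes. The 1 separated gene was the Wnt pathway adaptor Dvl3 (log2 -0.42, SE 0.22). It was lowest in EphrinB2 osteogenic replicate 1, and its log2 difference was -0.18 without that library and -0.21 without both libraries that stood apart. Rgs3, a regulator of G-protein signalling that binds the ephrin tail, had a log2 difference of 0.17 (SE 0.10). Of 23 forward signalling partners 4 were separated to the higher side (17.4%, against 5.2% of all genes) and 2 to the lower side (8.7%, against 3.24%). Below 0 were 16, and 13 with the length correction. The list's median exon length was 7320 bases, and its medians were 0.0563 in complete and -0.32 in osteogenic medium. The numbers separated to the higher and lower side after rescaling to the same total were 0 and 2, against 1.71% and 7.04% of all genes. Adam10, the protease that sheds ephrins, stood at 43.1 and 42.8 FPKM in vector and 38.8 and 34.2 in EphrinB2 libraries in complete medium, and at 35.96 and 36.6 against 22.98 and 33.6 in osteogenic medium (log2 -0.30, SE 0.14). Among 18 growth factor receptors, ligands and endocytic partners 13 were below 0, and Pdgfb had a log2 difference of -0.29 (SE 0.11) and Pdgfa one of 0.39 (SE 0.18), where the groups of Pdgfa overlapped in osteogenic medium. Of 9 Notch pathway genes 0 were separated the same way, with the targets Hes1 at 0.46 (SE 0.23) and Hey1 at 0.20 (SE 0.10). Of 26 semaphorin and axon guidance genes 22 were below 0, and 17 with either the length correction or quantile normalization. Their median exon length was 8157.5 bases, and their medians were 0.0943 in complete and -0.338 in osteogenic medium. Separated to the lower side was 1 (3.85%, against 3.24%), Sema4a (-0.14). Nrp2 had a log2 difference of -0.41 (SE 0.19). Of 18 Wnt pathway genes 1 was separated to the higher side (5.56%, against 5.2%), the receptor Fzd2 (0.17), and the inhibitor Nkd1 had a log2 difference of 0.21.

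Genes of bone formation and of calcium handling were examined because the study induced osteogenic differentiation. Of 18 osteoblast and cartilage genes tested 0 passed, 2 were separated to the higher side (11.1%, against 5.2%) and 0 to the lower side, and the median was -0.03. Bmp4, a bone morphogenetic protein, stood at 65.4 and 58.3 FPKM in vector and 67.4 and 65.8 in EphrinB2 libraries in complete medium, and at 24.3 and 27.4 against 34.7 and 33.3 in osteogenic medium (log2 0.25, SE 0.11). The parathyroid hormone receptor Pth1r was the other (0.30, SE 0.15). After rescaling to the same total 0 were. Runx2, the transcription factor of osteoblast commitment, named after its values were seen, stood at 3.11 and 2.80 FPKM in vector and 2.81 and 2.37 in EphrinB2 libraries in complete medium, and at 2.06 and 2.26 against 1.82 and 2.22 in osteogenic medium (log2 -0.10, 95% interval -0.32 to 0.12). The groups overlapped in both media, and the interval does not reach beyond 0.32 in size. Of 10 mineralization genes 1 was separated to the higher side, Bmp4 again, and the calcification inhibitor Mgp had a log2 difference of 0.47 (SE 0.34), with its largest value, 3221 FPKM, in EphrinB2 osteogenic replicate 1. Of 35 calcium entry, store and NFAT genes 4 were separated to the higher side (11.4%, against 5.2% of all genes) and 1 to the lower side (2.86%, against 3.24%). Rescaling to the same total left 1 and 1, against 1.71% and 7.04% of all genes. Orai1, the pore of store-operated calcium entry, stood at 7.69 and 7.84 FPKM in vector and 8.96 and 10.1 in EphrinB2 libraries in complete medium, and at 7.45 and 8.85 against 12.9 and 9.33 in osteogenic medium (log2 0.33, SE 0.12). The calcium channel subunit Cacnb3 (log2 0.24) and the calmodulin gene Calm3 (0.25), the latter named after its values were seen, were also among the 4.

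Among 16 S100 and RAGE pathway genes 1 was separated to the higher side (6.25%, against 5.2% of all genes) and 0 to the lower side. It was S100a13, with a log2 difference of 0.52 (SE 0.32), which was 0.15 without EphrinB2 osteogenic replicate 1, where it stood at 214 FPKM against 57.7 to 73.8 in the other libraries. S100a9, a calcium-binding alarmin of myeloid cells, was at 0 in all 4 vector libraries. It stood at 0.595 and 1.161 FPKM in the EphrinB2 libraries in complete medium and at 9.04 and 0 in osteogenic medium. These values rest on an estimated 6, 10, 97 and 0 reads, so that 3 of 4 EphrinB2 libraries held reads and 1 library held most of them. The level of the whole neutrophil and mast cell list, which contains S100a9, was 19.8 FPKM in that library and 2.23 to 3.89 in the other 7.

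Inflammatory lists lay mostly below 0 over both media, but their medians had opposite signs in the media. They were -0.46 in complete and 0.05 in osteogenic medium for cytokines, -0.18 and 0.06 for acute-phase genes, and 0.09 and -0.37 for interferon-stimulated genes. Of 21 cytokines and chemokines 17 were below 0 (against 49.5% of all genes), with a median of -0.20. Separated to the lower side was 1 (4.76%, against 3.24% of all genes), the alarmin Il33 (-0.18, SE 0.09). The macrophage growth factor Csf1 stood at 319 and 347 FPKM in vector and 273 and 269 in EphrinB2 libraries in complete medium, and at 266 and 232 against 195 and 232 in osteogenic medium (log2 -0.26, SE 0.12), and in osteogenic medium EphrinB2 replicate 2 lay level with the lower vector library. All 8 acute-phase genes tested were below 0, and 0 were separated the same way. Saa3 had a log2 difference of -0.74 (SE 0.60) and Lcn2 one of -0.49 (SE 0.45), which were -1.63 and -1.06 in complete medium but 0.15 and 0.08 in the osteogenic one. Of 31 interferon-stimulated genes 22 were below 0, with a median of -0.14 and 0 separated the same way. With the libraries that stood apart left out all 31 were below 0, with a median of -0.49. Their libraries differed widely within a group, as Gbp3 at 5.41 and 21.5 FPKM in the vector libraries in complete medium shows (log2 difference -0.57, SE 0.40), and Oas2 likewise (-0.51, SE 0.36).

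Cholesterol synthesis and cell cycle genes were separated to the lower side where they were separated at all. Of 24 cholesterol genes 4 were (16.7%, against 3.24% of all genes) and 0 to the higher side, with a median of -0.07 and 0 past the threshold. Hsd17b7, an enzyme of the pathway, stood at 21.8 and 21.3 FPKM in vector and 19.1 and 19.6 in EphrinB2 libraries in complete medium, and at 8.99 and 8.72 against 4.98 and 8.23 in osteogenic medium (log2 -0.28, SE 0.15). The sterol sensor protein Insig1 (-0.15) and the enzyme gene Sc5d (-0.17) were separated too, and all of these were named after their values were seen. Dhcr7, the last enzyme of the pathway, had a log2 difference of -0.24 (SE 0.11). After rescaling to the same total 7 were separated to the lower side (against 7.04% of all genes), and without both libraries that stood apart 10 (against 19%). Of 36 cell cycle genes 2 were separated to the lower side (5.56%, against 3.24% of all genes), among them the mitotic cyclin Ccnb1 (-0.32, SE 0.10). Below 0 were 25 (against 49.5% of all genes), and the median was -0.13. After quantile normalization 1 was separated to the lower side (against 412 of 12994 genes), and after rescaling to the same total 5 (against 7.04%). Without both libraries that stood apart 12 were (against 19%). The mitotic kinesin Kif11 had a log2 difference of -0.28 (SE 0.14).

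The lists of ribosomal proteins, nuclear oxidative phosphorylation and very long transcripts had medians far from 0. Not every list of short transcripts lay as high. The median was -0.196 for cytokines (median exon length 1875 bases) and 0.103 for S100 and RAGE pathway genes (1547 bases). Of 52 cytosolic ribosomal protein genes all 52 were above 0 (after quantile normalization 1 was below), and 9 were separated to the higher side (17.3%, against 5.2%), with a median of 0.40 and 0 past the threshold. Their median exon length was 1835 bases. Rpl3 stood at 143 and 143 FPKM in vector and 169.8 and 196 in EphrinB2 libraries in complete medium, and at 137 and 132 against 277 and 142 in osteogenic medium (log2 0.46, SE 0.21). The list's median was 0.07 in complete and 0.75 in osteogenic medium, 0.30 after the length correction and 0.17 without both libraries that stood apart. With the length correction 12 were separated to the higher side (against 4.75% of all genes). Rpl4 had a log2 difference of 0.39 (SE 0.18). All 38 nuclear genes of oxidative phosphorylation were above 0 too (after quantile normalization or rescaling to the same total 8 were below), with a median of -0.18 in complete and 0.74 in osteogenic medium and 0 separated the same way. Without both libraries that stood apart 25 were separated to the higher side (against 21.7% of all genes), with a median of 0.16. Ndufb7 (0.48) and Atp5j2 (0.45) came first by p, and without EphrinB2 osteogenic replicate 1 their log2 differences were 0.087 and 0.076. All 40 genes of the list of chromatin regulators and other very long transcripts (median exon length 18545 bases) were below 0 (34 with the length correction), with a median of -0.30. The medians were 0.09 in complete and -0.71 in osteogenic medium, and 0 were separated the same way. Without both libraries that stood apart 38 were separated to the lower side (against 19% of all genes), with a median of -0.28. Crebbp had a log2 difference of -0.30 (SE 0.18) and Kmt2e one of -0.61 (SE 0.43), and with single libraries left out that of Kmt2e ran from -0.90 to -0.13. The part of transcript length in these lists was not tested beyond the length correction, under which the medians were 0.13 for oxidative phosphorylation and -0.11 for the long transcripts.

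Genes of the mitochondrial genome lay mostly above 0. Of 13 tested 11 did (after quantile normalization 5 were below), 5 were separated to the higher side (38.5%, against 5.2%) and 0 to the lower side, with a median of 0.32 and 0 past the threshold. mt-Co2, a subunit of cytochrome oxidase, stood at 28.6 and 26.2 FPKM in vector and 42.3 and 48.2 in EphrinB2 libraries in complete medium, and at 24.5 and 22.3 against 75.3 and 30.7 in osteogenic medium (log2 0.86, SE 0.26). mt-Atp6, a subunit of ATP synthase, stood at 15.9 and 16.7 FPKM in vector and 25.1 and 20.03 in EphrinB2 libraries in complete medium, and at 15.9 and 12.4 against 32.3 and 19.5 in osteogenic medium (log2 0.62, SE 0.19). Both EphrinB2 libraries lay above both vector libraries in each medium, with EphrinB2 osteogenic replicate 1 highest. The complex I subunits mt-Nd6 (0.58), mt-Nd1 (0.38) and mt-Nd4 (0.32), named after their values were seen, made up the 5. These subunits were highest in EphrinB2 complete replicate 2, the other library that stood apart. Without both such libraries their log2 differences were 0.198, 0.142 and 0.149, and those of mt-Co2 and mt-Atp6 were 0.495 and 0.519. With both libraries that stood apart left out the list's median was 0.15 and 9 were separated to the higher side (against 21.7% of all genes). This list too is one of short transcripts, with a median exon length of 784 bases. Its medians were 0.545 in complete and 0.208 in osteogenic medium. With the length correction 3 were separated to the higher side (against 4.75% of all genes), and the median was 0.237. The part of transcript length was not tested further. Either rescaling to the same total or quantile normalization left 2, against 1.71% of all genes and 595 of 12994.

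The other lists held few separated genes, to be read against 5.2% of all genes on the higher and 3.24% on the lower side. Of 18 hypoxia and glycolysis genes 3 were on the higher side (16.7%), led by Ndrg1 (0.26, SE 0.09) and the isomerase Tpi1 (0.33). After rescaling to the same total 2 were higher and 5 lower, against 1.71% and 7.04% of all genes. Of 20 chaperones of the endoplasmic reticulum 2 were on the higher side (10%), among them the stress factor Xbp1 (0.23), while Edem1 had a log2 difference of -0.18. Of 22 integrated stress response genes 1 was on each side (4.55%), with Atf5 (0.24) higher and Asns at 0.28. Of 18 immediate early genes Klf4 (-0.25) was on the lower side (5.56%), and Klf2 had a log2 difference of 0.32. Of 21 glucocorticoid-response genes 0 were separated the same way, with log2 differences of the cell cycle inhibitor Cdkn1c at 0.44 (SE 0.17) and the co-chaperone Fkbp4 at 0.24. Of 12 IGF genes 0 were, with Igfbp5 at -0.50 (SE 0.23) and Irs1 at -0.37. Of 12 adipocyte genes the lipase Lpl (0.29) was on the higher and the fatty acid transporter Cd36 (-0.16) on the lower side.

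Marker lists of the other cell types had few tested genes apart from that of fibroblasts. Fibroblast markers had a median of 0.04 over 24 genes, with 2 separated to the higher (8.33%, against 5.2% of all genes) and 0 to the lower side. Endothelial and epicardial markers had medians of 0.02 and 0.05 over 6 genes each, and pericyte and smooth muscle markers 0.01 over 4, with 1 of these, Cnn1, separated to the higher side. The summed level of the pericyte and smooth muscle markers was 25 to 109 FPKM in EphrinB2 and 56.3 to 75.2 FPKM in vector libraries, so the groups overlapped. Cardiomyocyte markers had a median of 0.33 over 2 genes, neutrophil and mast cell markers 0.12 over 3, and Schwann and glial markers -0.05 over 4, with 0 separated the same way in these lists. The lymphocyte list had 1 gene tested and summed to 0.169 to 1.83 FPKM, with Cd3e and Ms4a1 under 0.1 FPKM everywhere.

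**Figure D5:**
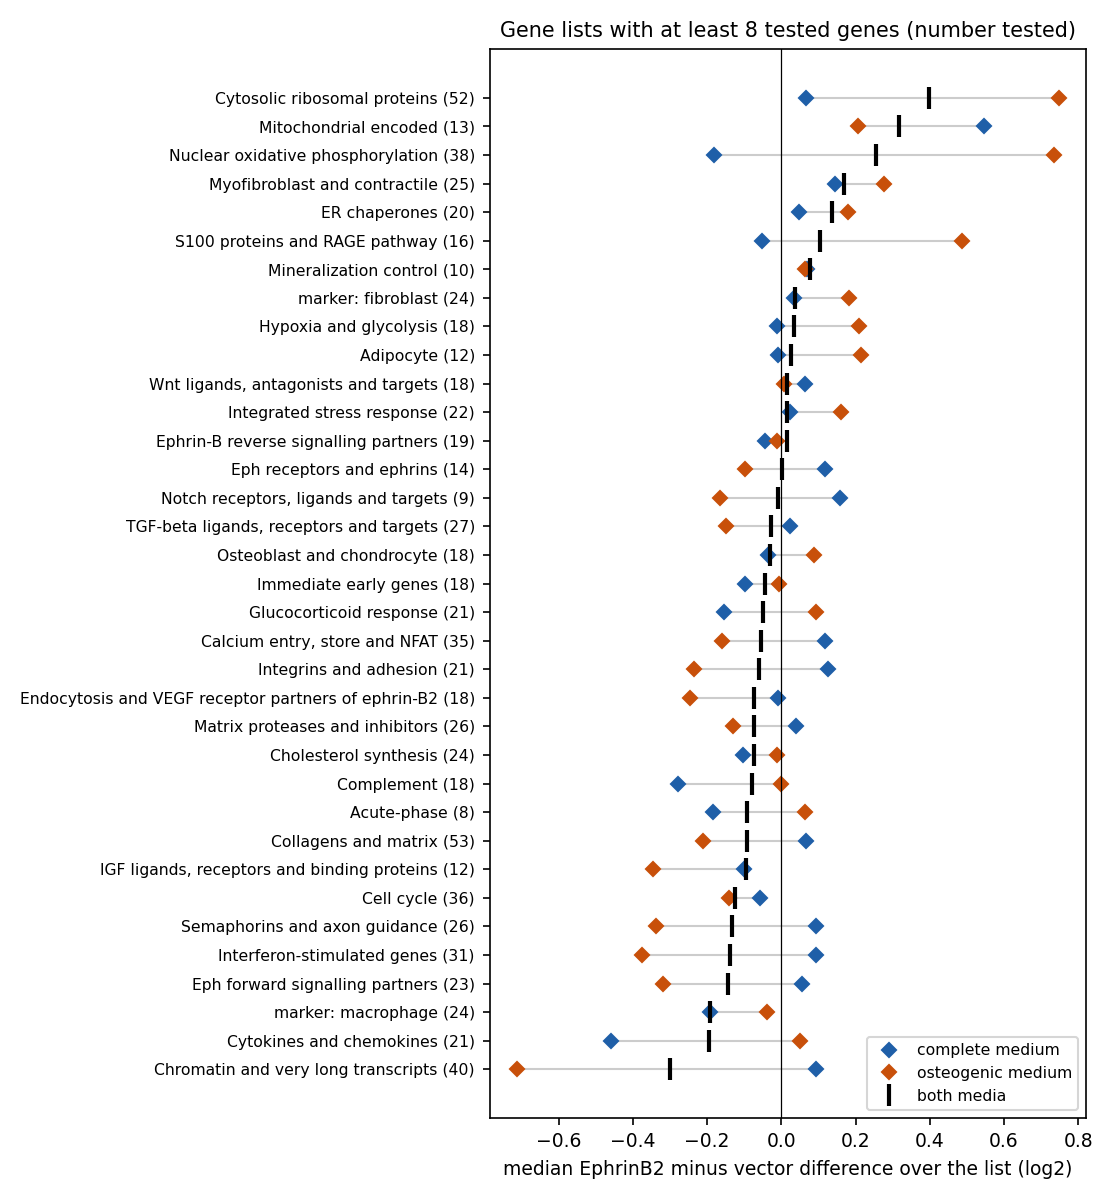
Median log2 difference between EphrinB2 and vector cells (horizontal axis) for the gene lists with at least 8 tested genes (vertical axis, number tested in brackets); blue and orange diamonds are the medians in complete and osteogenic medium and the black bar that over both. Medians lie close to 0 for most lists, and those of ribosomal proteins (0.40), mitochondrial encoded genes (0.32) and very long transcripts (-0.30) are farthest out, with diamonds far apart for the first and the last.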

How the data were processed

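RNA was sequenced from 8 libraries of mouse cardiac fibroblasts, 2 in each of 4 groups at day 7. The authors deposited FPKM values for 54532 genes in 1 table. Per the submitters' processing notes CASAVA, HISAT2 2.0.5, featureCounts 1.5.0-p3, DESeq2 1.16.1 and the mm10 build were used. The strand setting, the annotation release and any filters were not given in the sources used here. Gene names, positions and exon lengths came from GENCODE M21 (GRCm38), which held 54495 of the identifiers. The size of the smallest FPKM steps gave each library's depth, at which 98.1% to 98.3% of values of genes under 50 reads lay within 0.02 reads of a whole number.

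Genes with at least 1 FPKM in at least 2 libraries were kept (12994). On log2(FPKM + 1), which understates differences of low genes, limma 3.58.1 (R 4.3.3) fitted EphrinB2 against vector with medium as an additive term and a mean-variance trend, with Benjamini-Hochberg adjustment over all genes and a threshold of 0.05. Fits with 1 mean per group gave the values within each medium and the interaction. The length correction removed each library's trend on log2 exon length. The scripts were tested on simulated data. The model has 5 residual degrees of freedom, which limits the precision.

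Named genes were Efnb2, the Eph receptors and ephrins, 10 genes a direction by unadjusted p among those separated the same way with a mean of at least 2 FPKM (unnamed genes and pseudogenes passed over), and the 2 with the smallest p in each of the lists. The rule also named up to 4 members past the threshold, and there were 0. A few genes under this rule are not reported here. The members and lists were chosen with earlier results of these data known. Alternatives were the pseudocount, the filter, rescaling each library to the same sum (TPM), quantile normalization, length correction, 1 mean per group, library weights, no trend, and leaving out libraries.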

Additional observations from a re-analysis of the deposited data

Results flagged for a closer look

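Efna5, an A-class ephrin, had opposite EphrinB2 differences in the media. It stood at 11.2 and 11.2 FPKM in vector and at 11.4 and 17.6 in EphrinB2 libraries in complete medium, and at 5.80 and 6.28 against 3.84 and 5.53 in osteogenic medium. The osteogenic log2 difference minus that in complete medium was -0.642. It is listed because both EphrinB2 libraries lay above the vector libraries in one medium and both below in the other, and the difference did not pass limma's interaction test (unadjusted p = 0.0958, adjusted p = 0.746). In each medium the larger deviation was that of the library that stood apart, whose part in it was not tested. The other EphrinB2 library also lay above the vector pair in complete medium (11.4 FPKM) and below it in osteogenic medium (5.53). Without both libraries that stood apart the log2 difference over both media was -0.04, against -0.0031 with all. That value pools the media and does not measure how they differ.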

How the results depend on the processing

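No paired analysis was possible because the labels give no replicate numbers that the groups share. Of 350 values of the 20 leading genes under the alternatives, 348 kept direction and side of the threshold, 0 reversed, and 2, both of Efnb2, newly passed: library weights (2.57) and without EphrinB2 osteogenic replicate 1, with a range of 1.90 to 2.57 over single libraries left out. The 20 genes were chosen as separated in both media. Leaving out libraries or changing the pseudocount, filter, weights, trend or fit could therefore not reverse them. The count past the threshold over both media was 1 with no filter (Gm23509, of 29961 genes tested), 1 with library weights, and 0 to 1 with single libraries left out. Genes separated the same way to the higher side numbered 222 after rescaling to TPM, 2816 without both libraries that stood apart, and 835 to 2338 with single libraries left out. To the lower side they numbered 722 with no filter, 166 with a mean of at least 5 FPKM, 915 after rescaling to TPM, 2465 without both libraries that stood apart, and 563 to 2099 with single libraries left out. Fewer libraries make separation easier by construction. The interaction count was 22 with no filter. The count in complete medium was 13 with no filter, 2 without both libraries that stood apart, 0 with a pseudocount of 0.1, a mean of at least 5 FPKM, TPM, length correction or library weights, and 0 to 1 with single libraries left out. The count in osteogenic medium was 14 with no filter, 1 without both libraries that stood apart, and 0 to 2742 with single libraries left out. The cause of these changes was not tested further.

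Of 118 named genes 108 never changed sign. Among the other 10 the largest log2 differences over both media were 0.14 (Zyx) and -0.13 (Efnb1). The median absolute difference of all genes was 0.128, so differences of typical size could change sign. Genes separated the same way could not change sign when libraries were left out, by how they are defined. Without both libraries that stood apart Efnb1 was 0.0206 and Ephb4 -0.0436. With the length correction Efna2 was -0.014, Epha7 0.0472, Epha4 0.0551 and Ephb2 0.12. After TPM rescaling Ephb3 was -0.0596, Epha3 -0.0274, Ephb4 -0.15 and Zyx -0.018. After quantile normalization Epha7 was 0.0613, Epha4 0.0813, Ephb2 0.0336, Ephb4 -0.0266, Efna5 0.0058 and Zyx -0.0033. With library weights Ephb4 was -0.0409. With single libraries left out Epha3 ran from -0.0221 to 0.19, Epha7 from -0.15 to 0.0178, Epha4 from -0.13 to 0.10, Ephb2 from -0.20 to 0.11, Ephb4 from -0.12 to 0.0947 and Efna5 from -0.18 to 0.15.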
